A study of Mus musculus with 12 samples.

Results

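The CD28 family and the inhibitory receptors of T cells were followed through 9 genes: *Cd28*, *Icos*, *Btla*, *Lag3*, *Tigit*, *Cd226*, *Cd96*, *Cd160* and *Cd200*. The genes were taken by symbol from a list, all 9 are among the 12809 genes of the expression table, and all 9 passed the filter on low values that left 11595 genes for testing. RNA was sequenced from CD4 and CD8 T cells sorted from lymph nodes (LN) of female B6 (C57BL/6) and female FlipFlop mice, with 3 libraries in each of 4 groups. In FlipFlop mice the coreceptor genes are exchanged: the *Cd8a* gene loci encode CD4 and the *Cd4* gene loci encode CD8, both on chromosome 6, so that T cells bearing CD8 are of the helper lineage and T cells bearing CD4 are of the cytotoxic lineage. The modified *Cd8a* allele was made in embryonic stem cells of a 129 background and the modified *Cd4* allele in B6 cells. B6 mice carry neither allele, and neither strain received a treatment. The B6 mice were 10 weeks old and the FlipFlop mice 14 weeks old in the sample labels, so strain and age cannot be told apart. The labels do not say whether the replicates came from separate mice, and p-values measure only the spread between these libraries. The question was which receptor transcripts go with the lineage of the cell, which with the coreceptor on its surface and which with the strain.

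CD28 and ICOS are costimulatory receptors: they bind B7 family ligands on antigen-presenting cells, recruit phosphoinositide 3-kinase, and add to the signal of the T cell antigen receptor. BTLA, LAG-3, TIGIT and their relatives dampen that signal. TIGIT, CD96 and CD226 compete for nectin-like ligands, with CD226 activating and TIGIT inhibiting. BTLA and CD160 share the ligand HVEM, LAG-3 is a CD4 homolog that binds MHC class II, and CD200 is itself a ligand, whose receptor restrains myeloid cells. Helper T cells, above all follicular helper and regulatory T (Treg) cells, are known for ICOS and TIGIT, and cytotoxic T and NK cells for CD226, CD96 and CD160.

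RefSeq promoter sequence (GRCm38.p6) was matched for 5 of the 9 genes, *Btla*, *Tigit*, *Cd96*, *Cd160* and *Cd200*, and the 250 bases before each start were searched on both strands for the letters TGTGGT, the core that RUNX factors bind. RUNX3 is a cytotoxic-lineage factor. The window of *Tigit*, the gene with the largest difference between lineages among the 9, of *Cd160*, with the largest difference in the opposite direction, of *Cd96*, which was not called, and of *Cd200* are shown to set these cases side by side. Capitals mark TGTGGT or its reverse complement, and the sequences read 5′ to 3′ along the strand of the gene.
Tigit, chr16:43664185-43664434, minus strand: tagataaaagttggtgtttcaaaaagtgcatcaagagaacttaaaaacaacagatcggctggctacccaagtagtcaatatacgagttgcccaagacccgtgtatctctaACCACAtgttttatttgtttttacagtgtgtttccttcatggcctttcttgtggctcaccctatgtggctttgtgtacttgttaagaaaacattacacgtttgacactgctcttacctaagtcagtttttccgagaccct
Cd160, chr3:96829352-96829601, minus strand: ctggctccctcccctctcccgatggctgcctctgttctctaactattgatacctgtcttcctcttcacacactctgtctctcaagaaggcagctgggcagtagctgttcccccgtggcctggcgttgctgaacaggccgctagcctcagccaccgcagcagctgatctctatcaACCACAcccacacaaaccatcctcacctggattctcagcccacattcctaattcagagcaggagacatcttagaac
Cd96, chr16:46120249-46120498, minus strand: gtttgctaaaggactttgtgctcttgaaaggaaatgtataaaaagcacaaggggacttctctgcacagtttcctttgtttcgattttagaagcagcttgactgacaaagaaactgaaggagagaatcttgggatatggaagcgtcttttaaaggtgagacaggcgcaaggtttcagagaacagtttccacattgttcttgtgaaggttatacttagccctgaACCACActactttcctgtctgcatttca
Cd200, chr16:45409054-45409303, minus strand: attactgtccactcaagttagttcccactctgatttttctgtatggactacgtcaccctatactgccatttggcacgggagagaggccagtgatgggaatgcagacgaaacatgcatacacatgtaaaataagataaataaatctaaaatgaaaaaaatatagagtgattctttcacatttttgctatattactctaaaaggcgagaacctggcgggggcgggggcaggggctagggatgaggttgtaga
The letters TGTGGT occurred in the windows of 4 of these 5 genes, including both annotated starts of *Cd160*, and in 14.0% of all 32851 promoter windows of the same length. They start 140 bases before the start of *Tigit*, 76 bases before that of *Cd160* and 28 bases before that of *Cd96*, and *Cd200* has none in this window. CTTTGA, letters bound by TCF1 and LEF1, occurred only at the other annotated start of *Cd160* among the 6 windows and in 13.8% of all windows. AGGTGT, bound by T-box factors, was in none of the 6 windows and in 11.8% of all. AGATAA, bound by GATA factors, was in those of *Tigit* and *Cd200* and in 9.99% of all. No pair of these matches overlapped. A match is a description of the letters only, and binding was not measured here.

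Values are CPM, read counts relative to library size, scaled by TMM (a correction for the composition of the library). Differences are on the log2(CPM + 0.5) scale, with standard errors (SE) and Benjamini-Hochberg adjusted p-values from limma over all tested genes, and a gene was called at an adjusted p under 0.05. The libraries held 26600000 to 33100000 reads on the listed genes, and the 9 genes rested on at least 29 reads in every library. Of the markers of helper T cells (*Zbtb7b* and *Cd40lg*), the sum was 266.2 to 275.5 CPM in B6 CD4 libraries and 220.2 to 224.5 in FlipFlop CD8 libraries, against 1.68 to 5.80 CPM across the B6 CD8 and FlipFlop CD4 libraries. *Cd4* itself measured 1022.5 CPM in B6 CD4, 669.7 in FlipFlop CD4, 42.2 in FlipFlop CD8 and 1.46 in B6 CD8 T cells. T cell markers (5 of 5 listed) summed to at least 2511.3 CPM in every library, B cell markers (7 of 7 listed) to 39.1 to 73.5 CPM and myeloid markers (6 of 7 listed) to 54.8 to 99.0 CPM. B6 CD4 replicate 1 lay farthest from its group, by 0.404 (root mean square, log2), against 0.250 to 0.351 for the other 11 libraries.

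**Figure D1:**
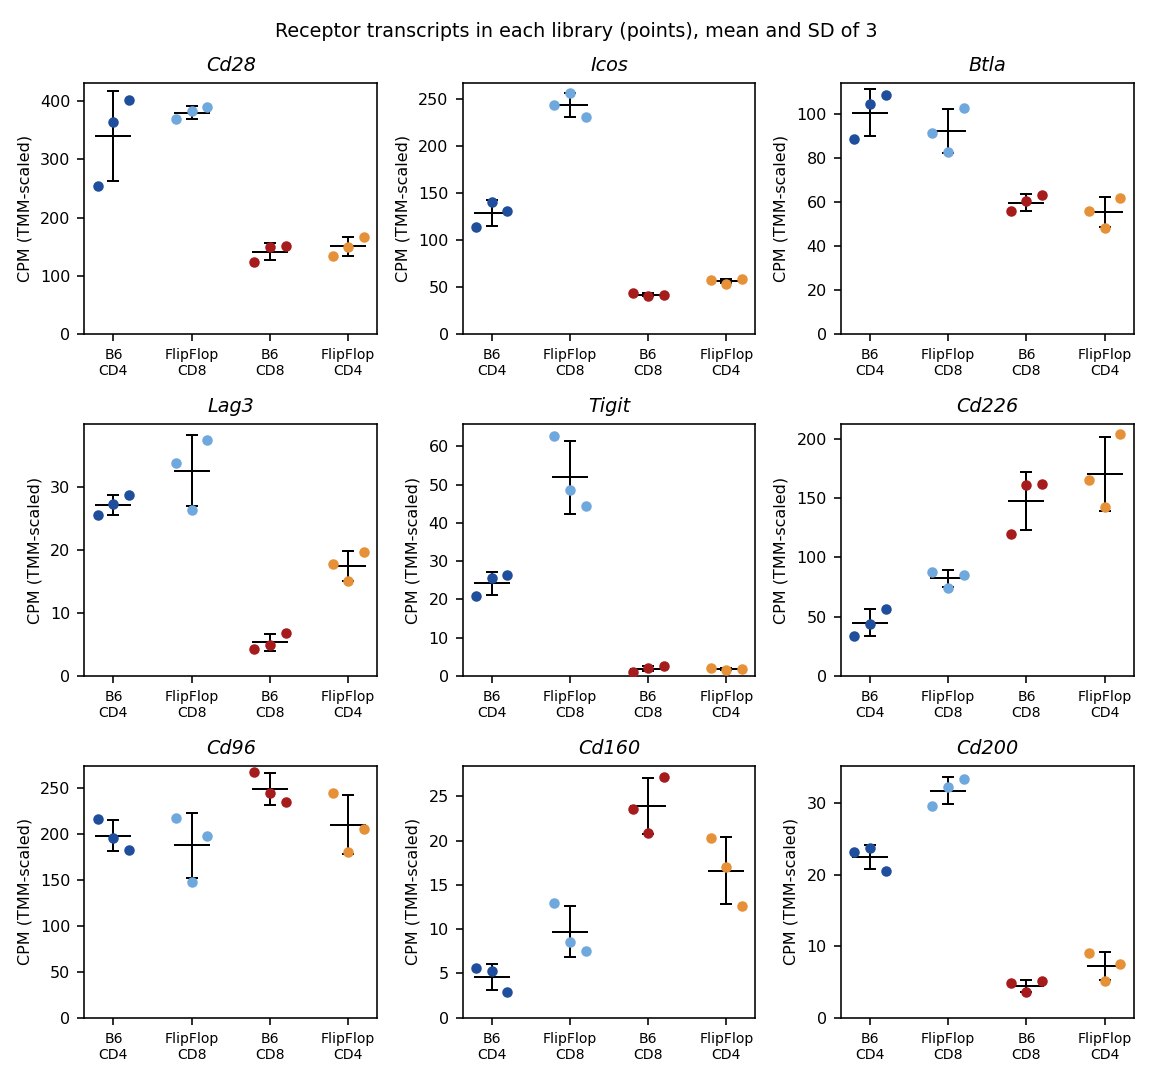
CPM of the 9 receptor genes in each of the 12 libraries (points), with the mean (bar) and SD (whiskers) of 3 libraries per group. The vertical axes start at 0 and differ between genes, helper-lineage groups are in blue shades and cytotoxic-lineage groups in red and orange. *Cd28*, *Icos*, *Btla*, *Lag3*, *Tigit* and *Cd200* were higher in every blue library than in every red or orange one, and *Cd226* was lower.

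In B6 mice 8 of the 9 receptors were called between CD4 and CD8 T cells, where 25.4% of all tested genes were called. Of these, 6 were higher in CD4 (14.6% of tested genes) and 2, *Cd226* and *Cd160*, in CD8 T cells (10.8%). In FlipFlop mice those 8 receptors were called as well, each in the opposite direction, where 31.3% of all tested genes were called, 15.3% higher and 16.0% lower in CD4 T cells. These comparisons share no library. The lineage effect, the mean of B6 CD4 and FlipFlop CD8 minus the mean of B6 CD8 and FlipFlop CD4 T cells, was called for those 8 receptors, against 39.3% of all tested genes (the helper lineage was higher for 19.9% of tested genes and lower for 19.4%). For 7 of the 9 (all but *Cd96* and *Cd160*), the 6 helper-lineage libraries did not overlap with the 6 cytotoxic-lineage libraries, which held for 16.9% of tested genes. The median size of the lineage effect was 1.53 for the 9 receptors and 0.16 for all tested genes. Markers of T cell subsets and other cells moved with the lineage effect too. Called higher in the helper lineage were 5 of 5 Treg markers (*Foxp3* by 6.64, adjusted p = 7.03e-12), 4 of 4 follicular helper markers, 4 of 12 memory or effector markers, the NK cell marker *Klrb1c* and 3 of 6 tested myeloid genes, and 3 of 8 naive T cell markers and 1 memory or effector marker (*Gzmm*, -1.62, adjusted p = 0.0495) were called lower. The B cell gene *Cd22* was called higher and *Cd79b* lower in the helper lineage. Of the T cell markers, *Thy1* (-0.61, adjusted p = 2.39e-06) and *Cd3d* (-0.27, adjusted p = 0.0325) were called lower there. In B6 mice alone, 6 of the 12 memory or effector markers were called higher in CD8 and 2 in CD4 T cells. Their part in the lineage effects of the receptors was not tested.

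*Cd28* (ENSMUSG00000026012.2, chromosome 1 from 60716800 to 60773359, GRCm38), the founding costimulatory receptor, measured 254, 364 and 402.5 CPM in B6 CD4 libraries and 368, 383 and 389.7 in FlipFlop CD8 libraries. It measured 124, 149.5 and 151 CPM in B6 CD8 libraries and 134, 150.0 and 167 in FlipFlop CD4 libraries. The lowest helper-lineage library was B6 CD4 replicate 1, and it still lay above every cytotoxic-lineage library. The lineage effect was 1.29 (SE 0.10, adjusted p = 7.86e-07), with differences between CD4 and CD8 T cells of 1.24 in B6 and -1.34 in FlipFlop mice. The strain effect, FlipFlop minus B6 over both lineages, was 0.14 (SE 0.10, adjusted p = 0.33).

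*Icos* (ENSMUSG00000026009.14, chromosome 1 from 60977927 to 61000320), the inducible costimulator needed for follicular help, measured 114, 140.6 and 131 CPM in B6 CD4 libraries and 243, 256 and 230.4 in FlipFlop CD8 libraries. It measured 43.3, 40.0 and 42.0 CPM in B6 CD8 libraries and 57.1, 53.6 and 58.0 in FlipFlop CD4 libraries. The 4 groups did not overlap with one another, and FlipFlop libraries were higher than B6 libraries within each lineage. The lineage effect was 1.85 (SE 0.06, adjusted p = 1.66e-10). FlipFlop CD8 exceeded B6 CD4 T cells by 0.92 (SE 0.08, adjusted p = 1.71e-05), and FlipFlop CD4 exceeded B6 CD8 T cells by 0.42 (SE 0.08, adjusted p = 0.00575).

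*Btla* (ENSMUSG00000052013.15, chromosome 16 from 45224315 to 45257670), the inhibitory receptor for HVEM, measured 88.8, 104 and 109 CPM in B6 CD4 libraries and 91.2, 82.9 and 103 in FlipFlop CD8 libraries. It measured 55.9, 60.4 and 63.2 CPM in B6 CD8 libraries and 55.9, 48.4 and 62.0 in FlipFlop CD4 libraries. Within each lineage the libraries of both strains overlapped, and between lineages they did not. Its CD4 minus CD8 difference was 0.74 (SE 0.11, adjusted p = 2.75e-04) in B6 and -0.73 (SE 0.11, adjusted p = 2.59e-04) in FlipFlop mice.

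*Tigit* (ENSMUSG00000071552.5, chromosome 16 from 43648867 to 43664146), the inhibitory receptor for nectin-like proteins, measured 20.8, 25.6 and 26.3 CPM in B6 CD4 libraries and 62.7, 48.7 and 44.3 in FlipFlop CD8 libraries. It measured 1.09, 2.16 and 2.45 CPM in B6 CD8 libraries and 1.97, 1.56 and 1.90 in FlipFlop CD4 libraries. The cytotoxic-lineage groups overlapped, and every helper-lineage library stood far above them. The mean was 12.8 times higher in B6 CD4 than B6 CD8 T cells, and 28.7 times higher in FlipFlop CD8 than FlipFlop CD4 T cells. Its lineage effect was 3.95 (SE 0.15, adjusted p = 9.42e-10), the largest of the 9. With limits of an unadjusted p under 0.0001 and more than 5-fold on the log2(CPM + 0.5) scale, *Tigit* was the only one of the 9 called in the B6, FlipFlop and lineage comparisons, where 1.55%, 2.16% and 1.61% of tested genes were called. As a ratio of mean CPM, the differences of *Lag3* (5.10), *Cd200* (5.03) and *Cd160* (5.20, higher in CD8) in B6 mice were also over 5-fold. In FlipFlop CD8 T cells *Tigit* exceeded B6 CD4 T cells by 1.08 (SE 0.21, adjusted p = 0.00385).

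*Cd200* (ENSMUSG00000022661.14, chromosome 16 from 45382135 to 45409053), a membrane ligand of the immunoglobulin superfamily, measured 23.2, 23.7 and 20.6 CPM in B6 CD4 libraries and 29.7, 32.3 and 33.4 in FlipFlop CD8 libraries. It measured 4.79, 3.52 and 5.10 CPM in B6 CD8 libraries and 9.06, 5.15 and 7.55 in FlipFlop CD4 libraries. FlipFlop libraries were above B6 libraries within each lineage without overlap, by a narrow margin in the cytotoxic lineage. Between lineages it differed by 2.16 (SE 0.12, adjusted p = 3.78e-08), and its strain effect was 0.56 (SE 0.12, adjusted p = 0.00682). FlipFlop CD4 minus B6 CD8 T cells gave 0.62 (SE 0.17, adjusted p = 0.0498), a call that was lost with a pseudocount of 1 (adjusted p = 0.052) and without any library but B6 CD4 replicate 1 and FlipFlop CD4 replicate 2 (10 of 12 libraries, adjusted p = 0.0558 to 0.2).

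*Lag3* (ENSMUSG00000030124.2, chromosome 6 from 124904361 to 124911705), the CD4 homolog that binds MHC class II, measured 25.5, 27.2 and 28.7 CPM in B6 CD4 libraries and 33.7, 26.3 and 37.4 in FlipFlop CD8 libraries. It measured 4.19, 4.96 and 6.79 CPM in B6 CD8 libraries and 17.8, 15.0 and 19.6 in FlipFlop CD4 libraries. The cytotoxic-lineage groups were apart, with FlipFlop CD4 T cells between B6 CD8 T cells and the helper-lineage groups, which overlapped. The CD4 minus CD8 difference was 2.27 (SE 0.17, adjusted p = 7.02e-07) in B6 and -0.87 (SE 0.17, adjusted p = 0.00154) in FlipFlop mice, so the reversal was unequal in size. The mean in FlipFlop CD4 T cells was 3.28 times that in B6 CD8 T cells, a difference of 1.64 (SE 0.17, adjusted p = 5.30e-05). FlipFlop CD8 minus B6 CD4 T cells gave 0.24 (SE 0.17, adjusted p = 0.282).

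The receptors that were higher in the cytotoxic lineage were *Cd226* and *Cd160*. *Cd226* (ENSMUSG00000034028.16, chromosome 18 from 89176967 to 89272229), the activating counterpart of *Tigit*, measured 33.9, 43.6 and 56.5 CPM in B6 CD4 libraries and 87.9, 74.4 and 85.1 in FlipFlop CD8 libraries. It measured 119, 160.8 and 162.0 CPM in B6 CD8 libraries and 165, 142 and 204 in FlipFlop CD4 libraries. The cytotoxic-lineage groups overlapped, whereas the helper-lineage groups did not, with FlipFlop CD8 T cells higher. Its lineage effect was -1.38 (SE 0.13, adjusted p = 3.00e-06), and FlipFlop CD8 exceeded B6 CD4 T cells by 0.90 (SE 0.18, adjusted p = 0.00473).

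*Cd160* (ENSMUSG00000038304.14, chromosome 3 from 96798763 to 96829351), a receptor for HVEM found on NK and cytotoxic T cells, measured 5.56, 5.26 and 2.94 CPM in B6 CD4 libraries and 13.0, 8.57 and 7.54 in FlipFlop CD8 libraries. It measured 23.6, 20.8 and 27.2 CPM in B6 CD8 libraries and 20.3, 17.0 and 12.6 in FlipFlop CD4 libraries. The FlipFlop groups touched, since FlipFlop CD4 replicate 3 lay below FlipFlop CD8 replicate 1. The difference was -2.30 (SE 0.25, adjusted p = 2.02e-05) in B6 and 0.76 (SE 0.25, adjusted p = 0.0338) in FlipFlop mice. The call in FlipFlop mice was lost without FlipFlop CD4 replicate 1 (0.61, adjusted p = 0.13), without FlipFlop CD4 replicate 2 (adjusted p = 0.0912), without FlipFlop CD8 replicate 2 (adjusted p = 0.107), without FlipFlop CD8 replicate 3 (adjusted p = 0.133) and without the TMM factor (adjusted p = 0.0724).

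*Cd96* (ENSMUSG00000022657.9, chromosome 16 from 46035657 to 46120251), which shares ligands with *Cd226* and *Tigit*, was the receptor with the smallest difference between lineages. It measured 216, 196 and 182 CPM in B6 CD4 libraries and 217, 148.0 and 198 in FlipFlop CD8 libraries. It measured 268, 244 and 235 CPM in B6 CD8 libraries and 244, 181 and 205 in FlipFlop CD4 libraries. B6 CD4 and B6 CD8 libraries did not overlap, whereas the FlipFlop groups did. The lineage effect was -0.25 (SE 0.10, adjusted p = 0.0637) and not called, with a 95% interval of -0.47 to -0.03. With a replicate block by number within strain it was called (adjusted p = 0.00156), as it was in B6 mice (-0.33, adjusted p = 0.00354). It was also called without B6 CD4 replicate 1 (adjusted p = 0.0429), without FlipFlop CD4 replicate 2 (adjusted p = 0.0354) or without FlipFlop CD8 replicate 1 (adjusted p = 0.027).

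**Figure D2:**
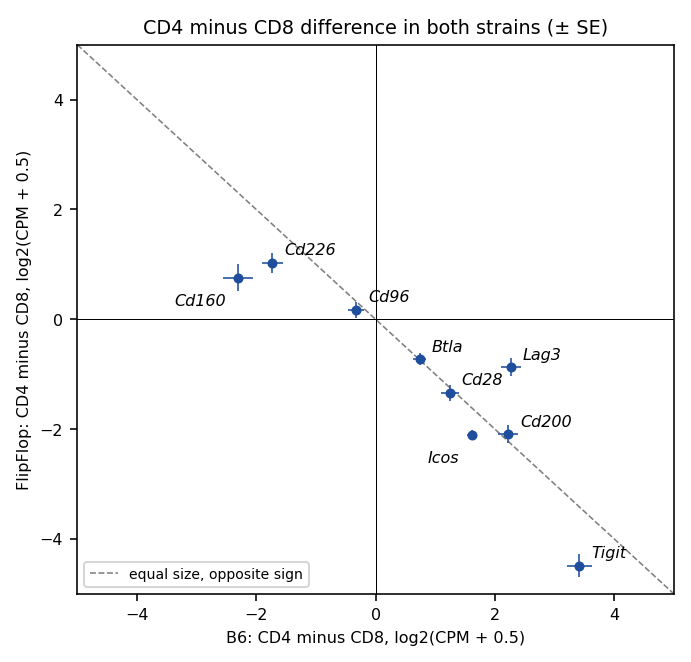
CD4 minus CD8 difference, log2(CPM + 0.5), in B6 mice (horizontal axis) and FlipFlop mice (vertical axis) for the 9 receptors, with bars of 1 SE from limma. The dashed line marks equal size and opposite sign: *Btla*, *Cd28* and *Cd200* lie on or beside it, *Tigit* and *Icos* lie below it, and *Lag3* (2.27 and -0.87) and *Cd160* (-2.30 and 0.76) lie nearer the horizontal axis.

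The unequal sizes were tested as a coreceptor effect, the mean of both CD4 groups minus the mean of both CD8 groups, which is 0 where the reversal is equal. In these groups a coreceptor effect cannot be told apart from a strain difference that is unequal in the lineages. It was called for 3 of the 9 receptors, *Lag3*, *Icos* and *Cd160*, against 5.49% of all tested genes, 1.71% higher and 3.78% lower with CD4. For *Lag3* it was 0.70 (SE 0.12, adjusted p = 0.00468), higher in the mean of the CD4 groups. Between the helper-lineage groups *Lag3* was not called (FlipFlop CD8 minus B6 CD4 T cells, 0.24, adjusted p = 0.282). For *Icos* the coreceptor effect was -0.25 (SE 0.06, adjusted p = 0.0244) and for *Cd160* -0.77 (SE 0.17, adjusted p = 0.0244), both higher in the mean of the CD8 groups. Within the cytotoxic lineage, however, *Icos* was higher with CD4 (FlipFlop CD4 minus B6 CD8 T cells, 0.42, adjusted p = 0.00575). For *Cd28*, *Btla*, *Cd96* and *Cd200* the 95% intervals lay within -0.30 to 0.33, so an effect larger than that was outside their intervals. With the replicate block by number within strain, 5 of the 9 were called, against 8.23% of all tested genes in that fit, adding *Tigit* (-0.54, adjusted p = 0.0122) and *Cd226* (-0.35, adjusted p = 0.0169). Without B6 CD8 replicate 3, FlipFlop CD4 replicate 2 or FlipFlop CD8 replicate 1, 1 of the 9, *Lag3*, was called. The call of *Icos* was also lost without B6 CD8 replicate 1 or FlipFlop CD8 replicate 2, and that of *Cd160* without B6 CD8 replicate 1 or FlipFlop CD4 replicate 3. Without B6 CD8 replicate 1, *Tigit* was called (-0.68, adjusted p = 0.00559). Subset markers moved with this effect too: 5 of 12 memory or effector markers (*Tbx21*, *Cd44*, *Ccl5*, *Cxcr3* and *Il2rb*), 2 of 5 Treg markers (*Ikzf2* and *Il2ra*) and *Klrb1c*, the NK cell marker, were called lower with CD4. Of 8 markers of naive T cells 4 (*Igfbp4*, *Dapl1*, *Lef1* and *Ccr7*) were called higher with CD4. The effect was -0.89 (adjusted p = 1.12e-05) for *Il2rb* and 0.43 (adjusted p = 2.19e-04) for *Lef1*. The part of these subsets in the coreceptor effects of the receptors was not tested.

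**Figure D3:**
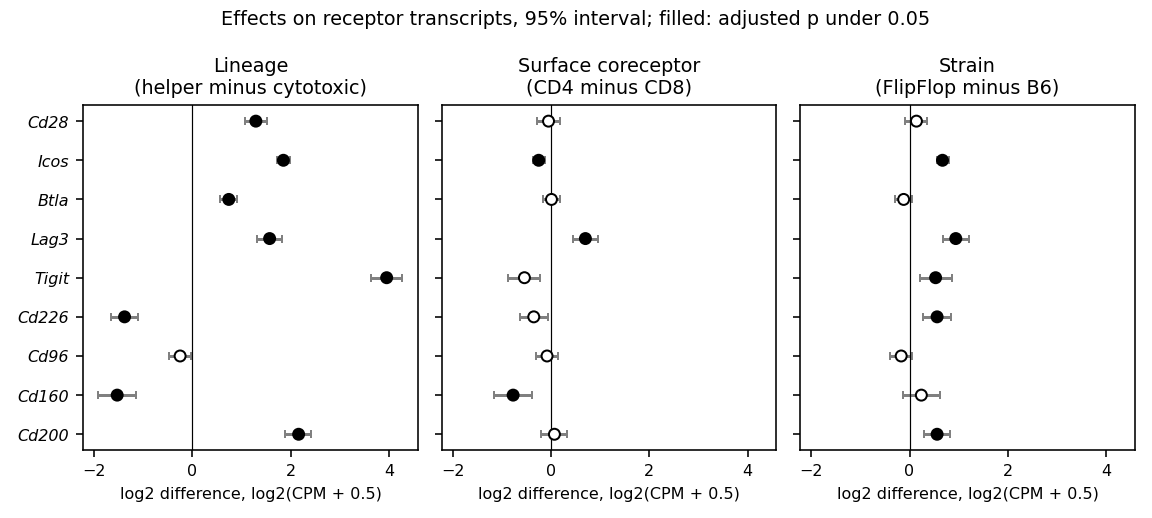
Lineage, surface coreceptor and strain effects on the 9 receptors as log2(CPM + 0.5) differences with 95% intervals from limma, filled where the adjusted p was under 0.05. The lineage effects run from -1.53 (*Cd160*) to 3.95 (*Tigit*), and the coreceptor and strain effects lie between -0.77 and 0.94.

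Strain effects were called for 5 of the 9 receptors, *Lag3*, *Icos*, *Cd226*, *Cd200* and *Tigit*, where 31.2% of all tested genes were called. All 5 were higher in FlipFlop T cells, a direction called for 15.8% of tested genes, against 15.4% for the other. The effects were 0.94 (SE 0.12, adjusted p = 2.01e-04) for *Lag3*, 0.67 (SE 0.06, adjusted p = 7.45e-06) for *Icos* and 0.53 (SE 0.15, adjusted p = 0.0197) for *Tigit*. This fit takes the 12 libraries as separate samples, although same-numbered CD4 and CD8 libraries deviated together in FlipFlop mice. Over the means of same-numbered libraries, 3 per strain, 4 of the 9 were called, against 16.5% of all tested genes, and *Tigit* was not (adjusted p = 0.0623). Within the helper lineage, *Icos*, *Tigit*, *Cd226* and *Cd160* were called higher in FlipFlop CD8 than B6 CD4 T cells (4 of 9), against 13.2% of tested genes in that direction, 14.4% in the other and 27.6% in either. Within the cytotoxic lineage, *Lag3*, *Icos* and *Cd200* were called higher in FlipFlop CD4 than B6 CD8 T cells (3 of 9), against 4.17% of tested genes in that direction, 3.75% in the other and 7.92% in either. *Cd160* exceeded B6 CD4 T cells by 1.01 (SE 0.25, adjusted p = 0.0121) in FlipFlop CD8 T cells.

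Markers of T cell subsets moved with these strain differences in both lineages. All 5 Treg markers fixed for this purpose (*Foxp3*, *Il2ra*, *Ikzf2*, *Nrp1* and *Tnfrsf18*) were called higher in FlipFlop CD8 than B6 CD4 T cells, and none was at 0. Their sum was 323.5 to 402.9 CPM in B6 CD4 libraries, 813.4 to 964.5 in FlipFlop CD8 libraries, 57.7 to 63.8 in B6 CD8 libraries and 58.9 to 60.0 in FlipFlop CD4 libraries. In the cytotoxic lineage most of the sum was *Tnfrsf18* (on average 47.6 CPM in B6 CD8 libraries and 41.5 in FlipFlop CD4 libraries, adjusted p = 0.242), while *Foxp3* (0.80, adjusted p = 0.0272) and *Nrp1* (1.20, adjusted p = 0.00132) were called higher in FlipFlop CD4 than B6 CD8 T cells, beside *Icos*, *Lag3* and *Cd200*. Of 12 markers of memory or effector T cells, 5 were called higher in FlipFlop CD8 than B6 CD4 T cells, with sums of 810.3 to 1226.1 against 369.9 to 489.9 CPM. Of 4 markers of follicular helper T cells, 2 were called higher, with sums of 129.8 to 163.1 against 77.3 to 113.6 CPM. *Klrb1c*, the 1 listed gene of 4 NK cell markers, measured 10.2 to 11.8 CPM in FlipFlop CD8 libraries, above the 2.73 to 4.26 of B6 CD4 libraries. Of 8 naive T cell markers, 5 were called lower in FlipFlop CD8 than B6 CD4 T cells, with sums of 4611.7 to 4812.7 against 6535.9 to 6616.7 CPM. Genes of other cells were lower as well in that comparison: 3 of 6 tested B cell genes, 2 of 6 myeloid genes and 3 of 4 red cell genes, the last with sums of 9.62 to 14.2 against 22.1 to 28.8 CPM. The part of these subsets and other cells in the strain differences of the receptors was not tested, and in RNA from whole sorted populations a change in the share of cells and a change in RNA per cell cannot be told apart.

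Groups that bear the same coreceptor were compared too, and these comparisons share libraries with those above. With CD4 on the surface, 8 of the 9 receptors (all but *Cd96*) were called between the strains, against 28.4% of tested genes. Of these, 6 were lower (15.7% of tested genes) and 2 higher (12.8%) in FlipFlop mice, and *Lag3* was not called without FlipFlop CD4 replicate 2 (-0.53, adjusted p = 0.0599). With CD8 on the surface all 9 were called, against 44.7% of tested genes, 6 higher (21.3%) and 3 lower (23.3%) in FlipFlop mice. With the limits of an unadjusted p under 0.0001 and more than 5-fold, 1 receptor (1.40% of tested genes) and 4 receptors (2.97%) were called in these 2 comparisons. With the same limits limma called 0 receptors for the coreceptor effect (0.0172% of tested genes), the strain effect (0.345%) and both strain comparisons within a lineage (0.474% in the cytotoxic and 0.405% in the helper lineage), where 5, 5, 3 and 5 receptors had an unadjusted p under 0.05. With CD8 on the surface *Cd96* differed by -0.42 (adjusted p = 0.0272), which was not called without the TMM factor (-0.19, adjusted p = 0.254), without B6 CD8 replicate 1 (adjusted p = 0.0882), without B6 CD8 replicate 2 (adjusted p = 0.0595) or without FlipFlop CD8 replicate 2 (adjusted p = 0.12).

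Levels were set against one another per kilobase of exon, as CPM per kb. The orders depend on the exon lengths, 6122 bases for *Cd28*, 3430 for *Icos* and 2184 for *Cd96*. In CPM, *Cd28* (mean 380.2) was above *Icos* (243.2) and *Cd96* (187.5) in FlipFlop CD8 T cells. *Cd96* was the highest of the 9 in every group, with 90.7 ± 7.81 (SD, n = 3) in B6 CD4, 85.9 ± 16.3 in FlipFlop CD8, 114.0 ± 7.81 in B6 CD8 and 96.2 ± 14.7 CPM per kb in FlipFlop CD4 T cells. In B6 CD4 T cells it was followed by *Cd28* (55.6 ± 12.6), *Icos* (37.5 ± 3.92), *Btla* (29.6 ± 3.09) and *Tigit* (26.4 ± 3.27), of which *Btla* and *Tigit* overlapped. Next came *Lag3* (12.9 ± 0.741), *Cd226* (9.13 ± 2.32) and *Cd200* (6.77 ± 0.509), of which *Cd226* and *Cd200* overlapped, and last *Cd160* (1.74 ± 0.543). In FlipFlop CD8 T cells *Icos* (70.9 ± 3.78) stood above *Cd28* (62.1 ± 1.78) without overlap, whereas it overlapped with *Cd96*, and *Tigit* (56.5 ± 10.4) overlapped with *Cd28*. They were followed by *Btla* (27.2 ± 2.95), then *Cd226* (16.9 ± 1.46) and *Lag3* (15.4 ± 2.68), which overlapped, then *Cd200* (9.57 ± 0.581) and *Cd160* (3.67 ± 1.10).

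In the cytotoxic lineage *Cd226* took the place after *Cd96*. In B6 CD8 T cells *Cd226* (30.1 ± 4.96 CPM per kb) overlapped with *Cd28* (23.1 ± 2.45), and *Btla* (17.6 ± 1.09), *Icos* (12.2 ± 0.477) and *Cd160* (9.03 ± 1.20) followed apart from one another. *Lag3* (2.52 ± 0.633), *Tigit* (2.07 ± 0.783) and *Cd200* (1.35 ± 0.252) were lowest, each overlapping with the next. In FlipFlop CD4 T cells *Cd226* (34.8 ± 6.35) and *Cd28* (24.6 ± 2.73) were apart, *Icos* (16.4 ± 0.673) and *Btla* (16.3 ± 2.01) overlapped, and *Lag3* (8.26 ± 1.10) overlapped with *Cd160* (6.30 ± 1.45). *Cd200* (2.18 ± 0.594) and *Tigit* (1.97 ± 0.239) were lowest and overlapped.

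Receptors that compete for a ligand were set against each other within each library, as a description without a test. Per kb of exon, *Tigit* was 2.47 to 3.26 times *Cd226* in B6 CD4 libraries and 2.77 to 3.79 times in FlipFlop CD8 libraries. In the cytotoxic lineage the order was the opposite, with *Cd226* 12.4 to 20.7 times *Tigit* in B6 CD8 libraries and 15.8 to 20.2 times in FlipFlop CD4 libraries. Per kb the inhibitory transcript was thus the higher one in all 6 helper-lineage libraries and the activating transcript in all 6 cytotoxic-lineage libraries. The helper-lineage order rests on exon lengths of 919 bases for *Tigit* and 4891 for *Cd226*. In CPM, *Cd226* was above *Tigit* in every helper-lineage library as well. Its means were 44.7 against 24.2 CPM in B6 CD4 and 82.5 against 51.9 in FlipFlop CD8 T cells. The ratio of *Btla* to *Cd160*, both in CPM per kb, averaged 18.9 in B6 CD4, 7.86 in FlipFlop CD8, 1.97 in B6 CD8 and 2.73 in FlipFlop CD4 T cells. The ratio of *Cd28* to *Ctla4*, which encodes the inhibitory receptor for the same B7 ligands, averaged 2.63, 1.24, 12.8 and 5.04 per kb in the same order. That ratio was lower in each FlipFlop group than in the B6 group of the same lineage, without overlap.

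**Figure D4:**
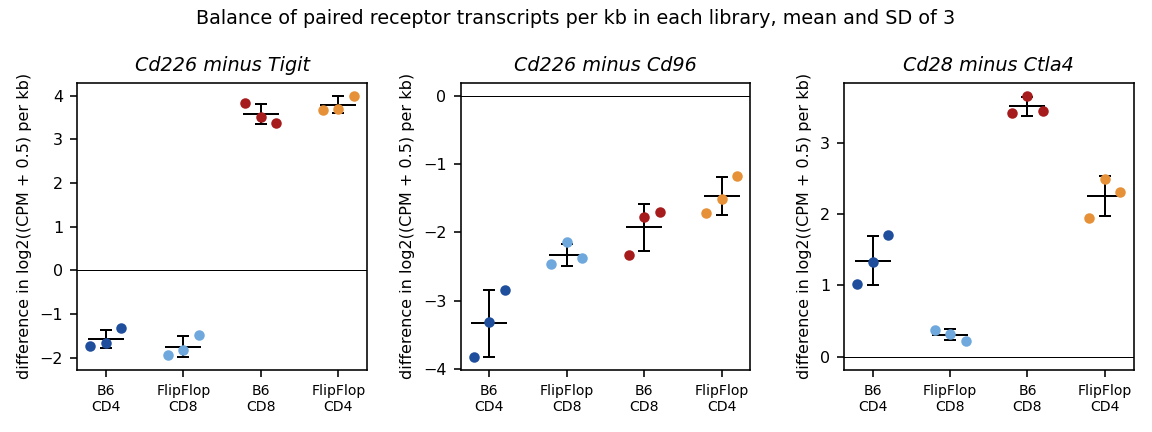
Difference in log2((CPM + 0.5) per kb of exon) between *Cd226* and *Tigit*, *Cd226* and *Cd96*, and *Cd28* and *Ctla4* within each library (points), with mean and SD of 3. *Cd226* minus *Tigit* averaged -1.57 and -1.74 in the helper-lineage groups and 3.57 and 3.79 in the cytotoxic-lineage groups.

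*Lag3* was looked at with its neighbors, because it is the nearest listed gene upstream of *Cd4*, 1 of the 2 coreceptor loci altered in FlipFlop mice. A gap of 16.1 kb separates the genes, which lie on the same strand, and the start of *Lag3* is 23.5 kb upstream of *Cd4*. Of 37 tested genes starting within 500 kb of *Cd4*, 3 had a called coreceptor effect: *Cd4*, *Lag3* and *Ptms*, all higher in the mean of the CD4 groups. Leaving out *Cd4* and *Lag3*, 1 of 35 was called, 2.86% against 5.49% of all tested genes. *Ptms*, which encodes the small acidic nuclear protein parathymosin, starts 31.9 kb from *Cd4*. It measured 60.6 CPM in B6 CD4, 75.2 in FlipFlop CD8, 10.5 in B6 CD8 and 26.9 in FlipFlop CD4 T cells. Its coreceptor effect was 0.50 (SE 0.09, adjusted p = 0.00775), and FlipFlop CD4 exceeded B6 CD8 T cells by 1.32 (SE 0.13, adjusted p = 3.79e-05), beside 1.64 for *Lag3*. In the helper lineage the CD8 group had the higher mean for both genes, and neither was called. FlipFlop CD8 minus B6 CD4 T cells gave 0.33 (SE 0.13, adjusted p = 0.0736) for *Ptms*, beside 0.24 for *Lag3*.

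Strain effects were called for 21 of the 37 genes, 56.8% against 31.2% of all tested genes, 12 higher and 9 lower in FlipFlop T cells. Without *Cd4* and *Lag3*, 19 of 35 were called, and their effects were between -0.50 and 0.83. Over the means of same-numbered libraries 14 of the 37 were called, against 16.5% of all tested genes in that fit. The genes that were higher were *Cd4*, *Lag3*, *Ptms*, *4930417O13Rik*, *Eno2*, *Cdca3*, *Clstn3*, *Gm44597*, *Vamp1*, *Ncapd2*, *Chd4* and *Cd27*. Those that were lower were *Spsb2*, *2010008C14Rik*, *Grcc10*, *Lpar5*, *Phb2*, *Cops7a*, *Emg1*, *Ptpn6* and *Nop2*. *Ptpn6* encodes SHP-1, a phosphatase that inhibitory receptors recruit, and its strain effect was -0.21 (adjusted p = 0.00516). The modified alleles and any flanking sequence from the stem cells cannot be told apart from strain and age in these groups.

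**Figure D5:**
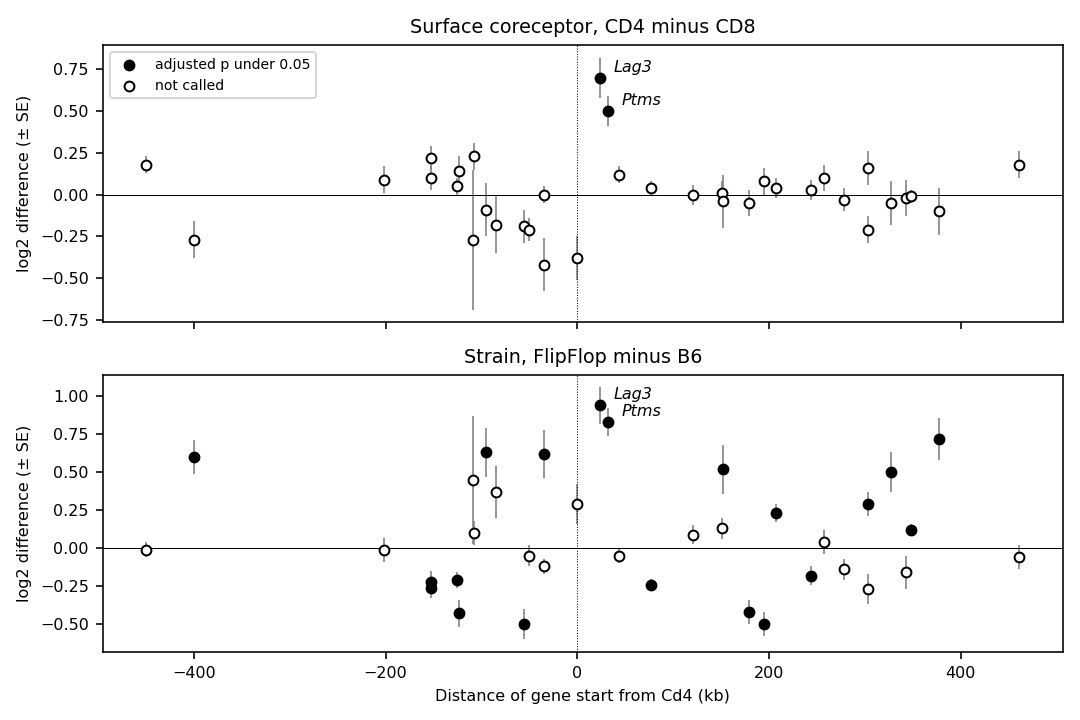
Surface coreceptor effect (upper panel) and strain effect (lower panel) as log2(CPM + 0.5) differences ± SE for tested genes starting within 500 kb of *Cd4*, against the distance of each start from *Cd4* in kb (positive is upstream), filled where the adjusted p was under 0.05. *Cd4* itself (6.55 and 1.97) is not drawn. *Lag3* (0.70) and *Ptms* (0.50) are the genes called in the upper panel, and calls of both signs are spread over the lower panel.

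Other genes near the receptors are receptors too. *Cd28*, *Ctla4* and *Icos* lie within 283.5 kb on chromosome 1, and *Tigit*, *Btla*, *Cd200* and *Cd96* within 2471.4 kb on chromosome 16, with 124.5 kb and no listed gene between *Btla* and *Cd200*. Neighbors differed: the lineage effect was 0.74 for *Btla* and 2.16 for *Cd200*, and 3.95 for *Tigit* and -0.25 for *Cd96*.

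Other receptors of T cells, on a list of 21 genes of which 18 were in the table and tested, mostly followed the 6 helper-lineage members. The lineage effect was called for 15 of the 18, 13 higher in the helper and 2 in the cytotoxic lineage, against 39.3% of tested genes. *Ctla4* measured 49.4 ± 4.48 CPM (SD, n = 3) in B6 CD4, 117 ± 9.93 in FlipFlop CD8, 4.22 ± 0.446 in B6 CD8 and 11.5 ± 1.69 in FlipFlop CD4 T cells. Its lineage effect was 3.35 (SE 0.08, adjusted p = 3.39e-11) and its strain effect 1.29 (SE 0.08, adjusted p = 7.25e-07). *Pdcd1*, which encodes the inhibitory receptor PD-1, measured 28.6 ± 5.36, 49.3 ± 5.52, 1.85 ± 0.626 and 4.18 ± 1.18 CPM in the same order, with a lineage effect of 3.55 (SE 0.16, adjusted p = 4.34e-09).

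Of the weaker receptors, *Havcr2* (TIM-3) averaged at most 2.54 CPM and *Pvrig* at most 4.72 CPM, both in FlipFlop CD8 T cells. Their lineage effects were called, 1.48 (adjusted p = 0.00184) and 1.57 (adjusted p = 1.95e-05), but the difference between CD4 and CD8 T cells was called in FlipFlop mice (-1.90, adjusted p = 0.00456, and -2.81, adjusted p = 4.09e-06) and not in B6 mice (1.05, adjusted p = 0.0974, and 0.34, adjusted p = 0.396). The inequality between the strains, tested as the coreceptor effect, was called for *Pvrig* (-1.24, SE 0.18, adjusted p = 0.00186) and not for *Havcr2* (-0.43, SE 0.30, adjusted p = 0.484). *Cd200r1*, the receptor for CD200, was higher in the helper lineage by 2.21 (SE 0.11, adjusted p = 9.17e-09). The receptors called higher in the cytotoxic lineage were *Crtam*, which binds a nectin-like ligand, with an effect of -2.59 (SE 0.10, adjusted p = 9.24e-10), and *Vsir* (VISTA), with -0.29 (SE 0.05, adjusted p = 3.64e-04).

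Transcripts of ligands of these receptors were also measured in the sorted populations. Several, such as *Cd80* and *Cd86*, are known from antigen-presenting cells, and the myeloid genes *Csf1r*, *Itgam* and *Lyz2* (1.09, adjusted p = 0.00378) were called higher in the helper lineage. Of the B cell genes, *Cd22* was called higher and *Cd79b* lower in the helper lineage. The cell of origin of the ligand transcripts was not tested. Of 21 listed ligand genes 14 were in the table and 12 were tested, of which 7 were called higher and 1 lower in the helper lineage, beside 19.9% and 19.4% of all tested genes. *Pvr*, the main ligand of TIGIT and CD226, averaged 36.5 CPM in B6 CD4, 34.5 in FlipFlop CD8, 12.1 in B6 CD8 and 19.8 in FlipFlop CD4 T cells, a lineage effect of 1.17 (SE 0.09, adjusted p = 3.50e-07). *Cd80* and *Cd86*, the B7 ligands of CD28 and CTLA-4, went opposite ways. *Cd80* averaged 1.09 CPM in B6 CD4 and 4.19 in FlipFlop CD8 T cells, and in the cytotoxic lineage 0.122 (B6 CD8) and 0.108 (FlipFlop CD4), about the level of 3 reads. Its lineage effect was 2.14 (SE 0.12, adjusted p = 4.04e-08), a size that the pseudocount of 0.5 holds down at such levels, whereas *Cd86* averaged 10.3 CPM in B6 CD4, 10.6 in FlipFlop CD8, 22.2 in B6 CD8 and 21.1 in FlipFlop CD4 T cells and was lower in the helper lineage (adjusted p = 7.07e-05). *Pdcd1lg2* (PD-L2) was higher in the helper lineage by 1.62 (SE 0.10, adjusted p = 5.60e-08) and *Lgals3*, a ligand of LAG-3, by 2.09 (SE 0.16, adjusted p = 5.12e-07). *Cd274* (PD-L1), with 34.9 to 53.0 CPM on average per group, had a lineage effect of 0.02 (SE 0.31, adjusted p = 0.972), and its SD reached 37.0 CPM in B6 CD8 T cells. *Tnfrsf14*, which encodes HVEM, had -0.20 (SE 0.15, adjusted p = 0.317), and *Icosl* 0.15 (SE 0.09, adjusted p = 0.196), with *Icosl* lower in FlipFlop T cells by a strain effect of -0.55 (SE 0.09, adjusted p = 9.99e-04). *Nectin2* averaged at most 0.393 CPM and was not tested.

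Genes on a list of signaling and related genes (*Tox*, *Adam10* and *Adam17* among them), 33 of 33 tested, mostly changed by less. The median size of the lineage effect was 0.19 for these genes, against 1.53 for the 9 receptors and 0.16 for all tested genes. Of these, 12 were called higher in the helper lineage, among them *Sh2d1a*, *Tox* and *Ptpn11*, and 7 higher in the cytotoxic lineage, among them *Ptpn6* and *Themis*. The largest effect of the list was that of *Tox2*, 3.74 (SE 0.13, adjusted p = 4.57e-10), higher in the helper lineage. Over the 3 lists 32 of 63 tested genes were called higher and 10 lower in the helper lineage, 66.7% of them in all, beside 39.3% of all tested genes (19.9% higher and 19.4% lower).

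The genes most like each receptor over the 12 libraries, among 8065 genes that average at least 10 CPM, were taken by Pearson's r of log2(CPM + 0.5). These values describe 12 libraries of 4 groups, so they largely carry the differences between groups. For *Icos* they were *Ikzf4* (r = 0.997) and *Nrp1* (r = 0.995), which is 1 of the Treg markers above. *Nrp1* averaged 110.5 CPM in FlipFlop CD8 libraries, above the 37.6 of B6 CD4 libraries. For *Tigit* they were *Samsn1* (r = 0.992) and *Mdfic* (r = 0.990). For *Cd200* they were *Pdcd1* (r = 0.987) and *Ctla4* (r = 0.985). For *Cd28* they were *Bmp2k* (r = 0.987) and *Tmem64* (r = 0.983), for *Btla* *Cers6* (r = 0.968) and *Csrnp1* (r = 0.960), and for *Lag3* *Mllt3* (r = 0.975) and *Psen2* (r = 0.971). *Psen2* had the same order of groups as *Lag3*, with 66.9, 78.1, 28.1 and 48.0 CPM in B6 CD4, FlipFlop CD8, B6 CD8 and FlipFlop CD4 T cells. For *Cd226* they were *Miga1* and *Hdgfl3* (both r = 0.967), and those for *Cd160* included *Cst7* (r = 0.981). For *Cd96* they included *Hmga1* (r = 0.853).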

How the data were processed

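RNA of sorted LN T cells (CD4 or CD8, B6 or FlipFlop) was made into 12 libraries with a low-input kit and sequenced as paired-end reads, aligned to mm10 with STAR in the study's methods. The submitters' processing notes list Trimmomatic and TopHat. The read counter, annotation and filter limit are not given in the sources used here. The authors deposited 1 table of expression signal, CPM divided by a TMM factor. The 12809 identifiers matched GENCODE M21. Values were steps of 0.01 read, and 84.8% to 86.4% of values under 100 CPM were whole reads (within 0.005), so count tests were not run. 3 reads, which a count of 0 allows, equal 0.0857 to 0.12 CPM (counting error only).

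Genes with at least 1 CPM in 3 libraries (11595) were fitted as log2(CPM + 0.5) with limma 3.58.1 in R 4.3.3 (lmFit, eBayes with trend, 1 mean per group, 12 libraries, 8 residual degrees of freedom), and two-sided p-values were adjusted by Benjamini-Hochberg over the 11595 genes. In data simulated for the lineage effect (11595 genes), 97 of 100 genes at a log2 change of 1, 100 of 100 at 2 and 12 of 11395 unchanged genes were called. The changed genes were drawn from those averaging over 3 in B6 CD4 libraries on the log2(CPM + 0.5) scale. Simulated libraries were independent of one another, so these counts do not cover changes in weaker genes or paired libraries. Levels per kb used the union of exons. Same-numbered CD4 and CD8 libraries deviated together in FlipFlop (r = 0.44, 0.27 and 0.51) and less evenly in B6 mice (0.18, 0.09 and 0.35), so by the data the numbers pair the FlipFlop libraries, although no label names what they share. Named genes were the 9 members, 18 preset genes of the receptor and ligand lists, the 2 genes most like each member (some are not reported here), and neighbors of *Cd4* with a called coreceptor or strain effect. Signaling genes were named after their values were seen. Members and lists were chosen with earlier results of these data known. Alternatives were pseudocounts, filters, scalings, no eBayes, fits of the compared libraries, replicate blocks, other limits, each library left out and, added after seeing the data, means of same-numbered libraries for the strain effect.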

Additional observations from a re-analysis of the deposited data

Results flagged for a closer look

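For 8 of the 9 receptors the CD4 minus CD8 difference differed between B6 and FlipFlop mice (limma, the same test as the lineage effect, Benjamini-Hochberg adjusted over all tested genes, 39.3% of which were called). The B6 difference minus the FlipFlop difference, on the log2(CPM + 0.5) scale, was 7.90 (SE 0.30, adjusted p = 9.42e-10) for *Tigit*, 4.31 (SE 0.25) for *Cd200*, 3.71 (SE 0.11) for *Icos*, 3.14 (SE 0.23) for *Lag3*, 2.58 (SE 0.21) for *Cd28* and 1.47 (SE 0.16) for *Btla*. It was -2.76 (SE 0.26) for *Cd226* and -3.06 (SE 0.35, adjusted p = 1.72e-05) for *Cd160*. For *Cd96* it was -0.50 (SE 0.20, adjusted p = 0.0637), which did not pass the limit.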

How the results depend on the processing

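Over 23 settings and 81 pairs of receptor and comparison (not every setting applies to every comparison), 1635 of 1719 results kept their direction and their side of the limit, 41 lost the call, 21 gained it and 22 changed sign, the last always at differences that were not called. The lineage calls of 8 receptors were kept in every setting with the same call limit. With limits of an unadjusted p under 0.0001 and over 5-fold, 1 receptor was called in the B6, the FlipFlop, the lineage and the FlipFlop CD4 against B6 CD4 comparisons, 4 in FlipFlop CD8 against B6 CD8, and 0 for the coreceptor and strain effects and between the strains within each lineage. With an added 2-fold limit the counts were 5 in FlipFlop mice, 0 for the coreceptor effect, 0 for the strain effect, 1 for FlipFlop CD4 against B6 CD8 and 2 for FlipFlop CD8 against B6 CD4. The pathway lists fell to 17 and, with the 5-fold limits, 7 of 63 genes, and the *Cd4* neighbors to 1 and 1 for the coreceptor and 1 and 0 for the strain effect; these counts are lower by construction. A linear model without eBayes left 1 receptor with a called coreceptor effect. A replicate block raised the coreceptor calls of receptors from 3 to 5 (number within strain) and those of *Cd4* neighbors from 3 to 5 (number) or 6 (number within strain), with the cause not tested. Averaging same-numbered libraries, an alternative chosen after seeing the data, moved the strain calls of receptors from 5 to 4, of *Cd4* neighbors from 21 to 14 and of all tested genes from 3615 to 1917. Leaving out 1 library gave 1 to 3 receptors for the coreceptor effect, and 3 to 5 neighbors of *Cd4* (5 without B6 CD4 replicate 1). Signs changed with the scaling or the pseudocount for *Btla* (coreceptor effect -0.01 by median-of-ratios and -0.05 without the TMM factor, FlipFlop CD8 against B6 CD4 0.04), *Tigit* (FlipFlop CD4 against B6 CD8 0.00 with a pseudocount of 0.1 and 0.03 without the TMM factor) and *Cd96* (FlipFlop CD4 against FlipFlop CD8 -0.01 and FlipFlop CD8 against B6 CD4 0.07 without the TMM factor). With 1 library left out, the coreceptor effect ran from -0.12 to 0.05 for *Cd28*, from -0.04 to 0.05 for *Btla* and from -0.02 to 0.17 for *Cd200*. FlipFlop CD4 against B6 CD8 ran from 0.00 to 0.17 for *Cd28* and from -0.28 to 0.16 for *Tigit*. FlipFlop CD8 against B6 CD4 ran from -0.01 to 0.32 for *Cd28* and from -0.21 to 0.07 for *Cd96*, and FlipFlop CD4 against B6 CD4 from -0.04 to 0.18 for *Cd96*. Without the TMM factor the median of all genes moved by 0.12 for the lineage effect, 0.11 for the strain effect, -0.173 in FlipFlop mice, 0.164 for FlipFlop CD8 against B6 CD4 and 0.23 for FlipFlop CD8 against B6 CD8. The 9 receptors rested on at least 29 reads in every library, above the level of 3 reads, and a part of depth in their values or calls was not tested.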
